A study of Bos taurus with 4 samples.

Results

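Chromosomes 19 and 25 of the bovine genome were described by their peaks of H3K4me3 and H3K27me3 in bovine embryonic stem cells (bESCs). Both chromosomes were chosen by their measured peak density and coverage, so these values are given as a description and no test was made on them. The 4 peak lists held 6833 peaks on chromosomes 19 and 25, of 95708 peaks in all. The other autosomes without chromosome 23, 26 in number, held 63680 peaks and served as comparison. The lists came from CUT&RUN, in which antibodies direct a nuclease to chromatin carrying the mark, and the DNA it releases is sequenced. There were 2 libraries for H3K4me3 and 2 for H3K27me3, of about 50000 cells each. The cells were NBFR-bESCs, grown in N2B27 medium with BSA, FGF2 and the tankyrase inhibitor IWR-1 on mouse feeder cells. The CUT&RUN methods of the paper describe no removal of the feeder cells. The sample labels give the derivation from 1 female blastocyst, whereas the paper speaks of independent lines, so the replicates may or may not be separate lines. All libraries were of the same culture condition, and the labels name no differentiated or male cells.

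H3K4me3 is found mostly at active or poised promoters, often over CpG islands. H3K27me3 is laid down by Polycomb repressive complex 2 over silent developmental genes and can spread into wide domains. Promoters that carry both marks are called bivalent and are typical of developmental regulators in pluripotent cells. Chromosomes differ in how many genes, and so how many promoters, they hold per length.

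H3K4me3 was denser on chromosomes 19 and 25 than on most autosomes in both libraries. Chromosome 19 held 1310 peaks in replicate 1 and 1204 in replicate 2, or 20.6 and 18.98 peaks per Mb over its 63.4 Mb. Chromosome 25 held 777 and 741 peaks, or 18.4 and 17.5 per Mb over its 42.3 Mb. The median of the 26 comparison autosomes was 8.33 and 7.75 per Mb. Peaks that recurred in the other replicate were merged into shared regions, which numbered 1063 on chromosome 19 and 655 on chromosome 25. Their density, 16.8 and 15.5 per Mb, was 2.43 and 2.24 times the comparison median of 6.90. Chromosome 25 was the shortest of the 28 autosomes that remain without chromosome 23, but chromosome 19 was only the 21st in order of falling length, so the pair was not simply the smallest chromosomes.

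H3K27me3 was also dense on both, and here chromosome 25 stood first. Its peaks covered 21.1% of the chromosome in replicate 1 and 23.4% in replicate 2. On chromosome 19 the coverage was 15.3% and 15.9%, against comparison medians of 5.76% and 6.23%. By shared regions the coverage was 2.68 times the comparison median on chromosome 19 and 3.91 times on chromosome 25, and 1.78 and 2.60 times when only autosomes numbered 18 and above were compared. Chromosome 25 held 17.1 and 15.4 H3K27me3 peaks per Mb, and chromosome 19 held 11.8 and 10.7. The difference in coverage between chromosomes 25 and 19 exceeded the difference between replicates on either.

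Chromosome 18 was as densely marked, although it was not among the chosen chromosomes. Its H3K4me3 density of 19.6 and 17.99 peaks per Mb lay between those of chromosomes 19 and 25 in both replicates. Its H3K27me3 coverage of 17.4% and 18.5% likewise lay between that of chromosomes 19 and 25. The next comparison autosome in H3K4me3 regions, chromosome 7, had 10.1 per Mb, and the next in H3K27me3 coverage by shared regions, chromosome 26, had 14.5%. In the plot of H3K4me3 density against H3K27me3 coverage, chromosomes 18, 19 and 25 therefore stood together, apart from the other comparison autosomes.

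**Figure D1:**
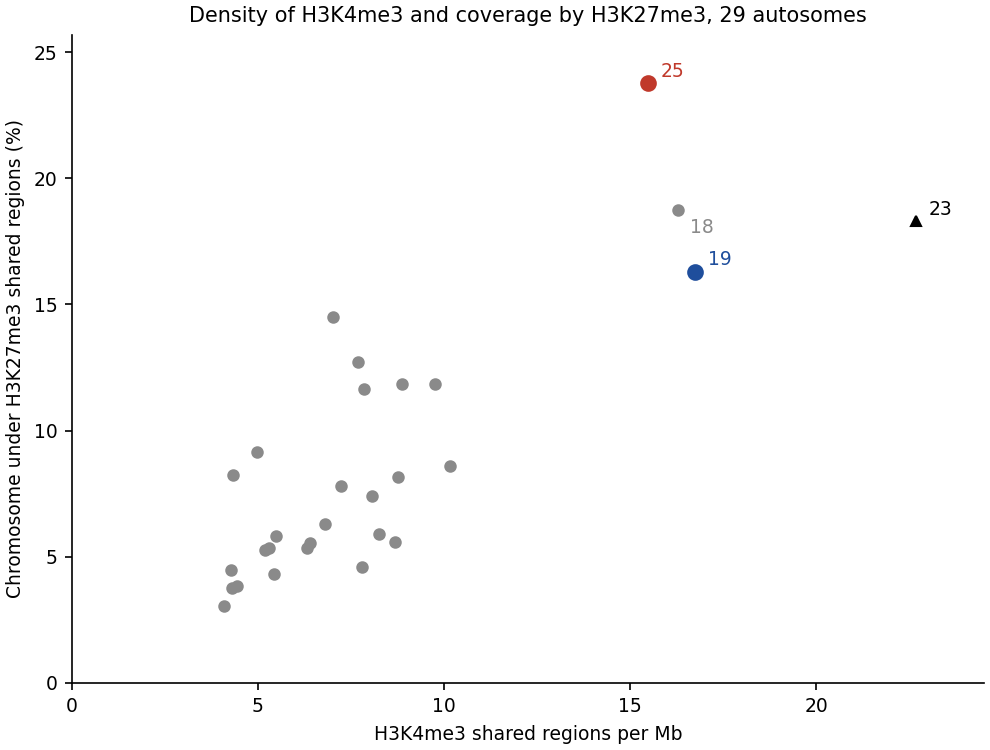
Shared H3K4me3 regions per Mb (horizontal axis) and percent of the chromosome under shared H3K27me3 regions (vertical axis), 1 point per autosome. Chromosome 19 (blue) is at 16.8 per Mb and 16.3%, chromosome 25 (red) at 15.5 per Mb and 23.8%, chromosome 18 lies near both, and chromosome 23 (triangle) was left out of the comparison.

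The number of H3K4me3 regions was close to the number of genes named for these chromosomes. From the RefSeq table of another assembly, ARS-UCD2.0, only gene names and their order were used. It lists 1192 protein-coding genes for chromosome 19 and 705 for chromosome 25. This gave 0.892 H3K4me3 regions per listed gene on chromosome 19 and 0.929 on chromosome 25. The median of the comparison autosomes was 0.956, with a range from 0.585 on chromosome 15 to 1.15 on chromosome 24. Measured per gene and not per Mb, chromosomes 19 and 25 thus ranked 20th and 17th of the 28 autosomes. Across the 28 autosomes, regions per Mb and listed genes per Mb had a Pearson r of 0.97, as a description in which both values share the chromosome length. Among the genes named for chromosome 19 are 10 HOXB genes, which pattern the body axis and are classical Polycomb targets. The 2 HBA genes, which encode alpha globin, are named for chromosome 25. No peak was assigned to these genes, since no annotation of the assembly of the peak lists was used.

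**Figure D2:**
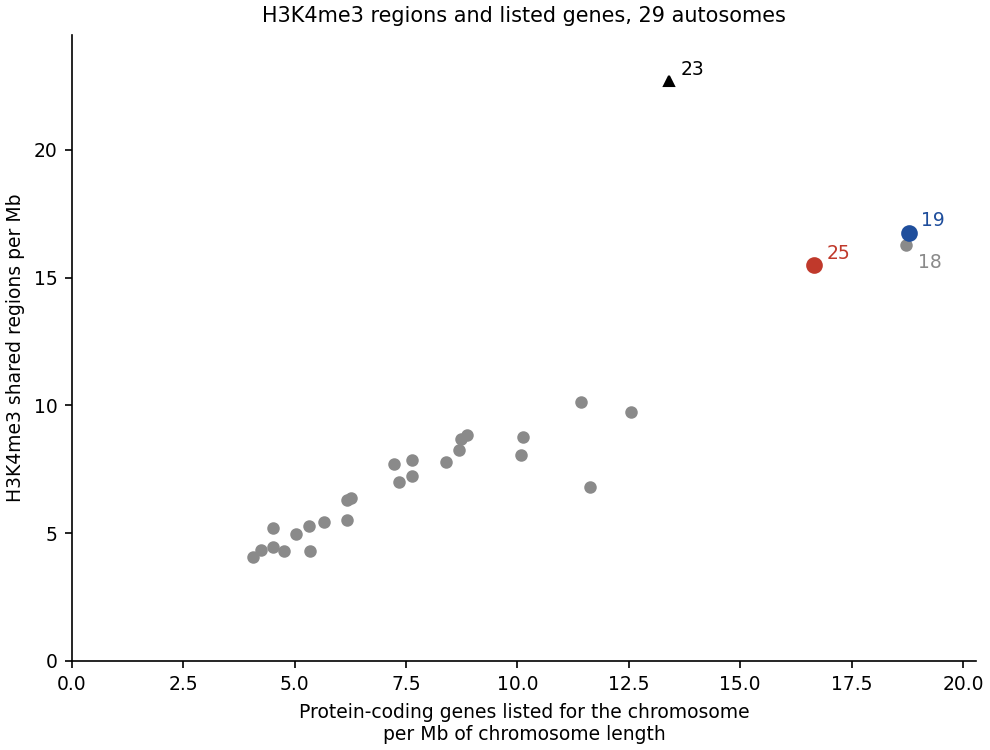
Protein-coding genes listed per Mb (horizontal axis, names counted in the RefSeq table of ARS-UCD2.0) and shared H3K4me3 regions per Mb (vertical axis), 1 point per autosome. Chromosomes 19 (blue) and 25 (red) lie at the upper end of the trend of the comparison autosomes, next to chromosome 18, while chromosome 23 (triangle) lies above it.

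The median widths of single peaks on these chromosomes were within the range of the comparison autosomes. The median H3K4me3 peak was 2400 bp wide on both chromosomes in replicate 1, and 2600 bp on chromosome 19 and 2800 bp on chromosome 25 in replicate 2. The comparison medians were 2400 bp and 2600 bp. The median H3K27me3 peak of replicate 1 was 7000 bp on both, with a comparison median of 6800 bp. In replicate 2 it was 7400 bp on chromosome 19 and 8600 bp on chromosome 25, with a comparison median of 7200 bp and a range from 6200 to 8700 bp. Every one of these medians lay within the range of the comparison autosomes. In replicate 2, chromosome 25 was near the top of that range, with 1 comparison autosome above it for H3K27me3 and none for H3K4me3. Shared H3K27me3 regions of 20 kb or more made up 22.95% on chromosome 19 and 28.2% on chromosome 25, against a median of 21.4% and a highest value of 36.1% on chromosome 26.

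Most peaks recurred between libraries, and their scores were compared with those of the whole list. The score is a whole number given by the authors for each peak, with no stated meaning, and was used only to rank peaks within a list. On chromosome 25, 59.8% and 58.6% of the H3K4me3 peaks of replicates 1 and 2 reached the median score of the list, against comparison medians of 54.8% and 54.1%. On chromosome 19 the shares were 54.3% and 53.3%. Of the H3K27me3 peaks of replicate 1, 94.2% on chromosome 25 and 87.1% on chromosome 19 overlapped a peak of replicate 2, with a comparison range from 81.1% to 92.0%. Of those of replicate 2, 86.3% and 85.1% overlapped a peak of replicate 1, within the comparison range from 75.9% to 91.0%. For H3K4me3 peaks of replicate 1 the shares were 88.0% and 85.6%, with a range from 83.5% to 88.1%. When peaks below the median score were dropped, H3K4me3 regions fell to 9.91 per Mb on chromosome 19 and 9.99 on chromosome 25, still 2.46 and 2.48 times the comparison median, and chromosome 18 was then above both at 10.2.

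Shared H3K4me3 regions lay close together. The median distance from one to the next was 20.2 kb on chromosome 19 and 18.1 kb on chromosome 25. The comparison median was 48.25 kb, and of the 26 comparison autosomes only chromosome 18, at 18.4 kb, was below chromosome 19. For H3K27me3 regions the median distance was 15.2 kb on chromosome 19 and 7.90 kb on chromosome 25, against a comparison median of 19.3 kb. Here 9 comparison autosomes were below chromosome 19 and 3 were below chromosome 25, so short distances were not particular to the pair.

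H3K4me3 was dense in 7 separate stretches of chromosome 19. Of its 63 windows of 1 Mb, 25 held at least 20 H3K4me3 peaks in both replicates, or 39.7%. On the comparison autosomes 8.38% of 2328 windows did so, and on chromosome 18 alone 40.9% did. These windows were chosen on the measure that picked the chromosome, so the difference is a description. The longest stretch of such windows ran from 33 to 41 Mb, with 292 peaks in replicate 1 and 260 in replicate 2. Stretches of 4 windows lay from 20 to 24 Mb and from 53 to 57 Mb. The densest window, from 27 to 28 Mb, held 65 peaks in each replicate, and the next by shared regions held 51 and 46 between 43 and 44 Mb, and 47 and 43 between 44 and 45 Mb. At the other end, the 3 windows from 2 to 5 Mb had no peak of either mark in any of the 4 lists. Such windows made up 4.76% of chromosome 19, 0% of the 42 windows of chromosome 25 and 7.99% of the comparison windows. The depth of the libraries is not known from the lists, so a window without a peak is not shown to lack the mark.

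On chromosome 25, H3K4me3 was gathered in a few blocks. Its 13 windows with at least 20 H3K4me3 peaks in both replicates, 31.0% of 42, lay from 0 to 4 Mb, from 26 to 28 Mb and, with gaps, from 33 to 42 Mb. The first 4 Mb alone held 202 and 187 peaks in replicates 1 and 2. The window with the most shared regions, from 26 to 27 Mb, held 59 and 65 peaks, and the windows from 1 to 2 Mb and from 2 to 3 Mb held 62 and 54, and 54 in each replicate. None of the windows from 4 to 26 Mb passed the limit. The densest 10 of the 42 windows held 60.1% of the shared H3K4me3 regions of chromosome 25, beside a comparison median of 59.5% for about the same fraction of windows. The number of windows was rounded to a whole number on each chromosome. On chromosome 25 it was rounded down, which lowers its share. On chromosome 19 the densest 16 of 63 windows held 52.97%, just below the lowest comparison autosome at 53.04%.

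**Figure D3:**
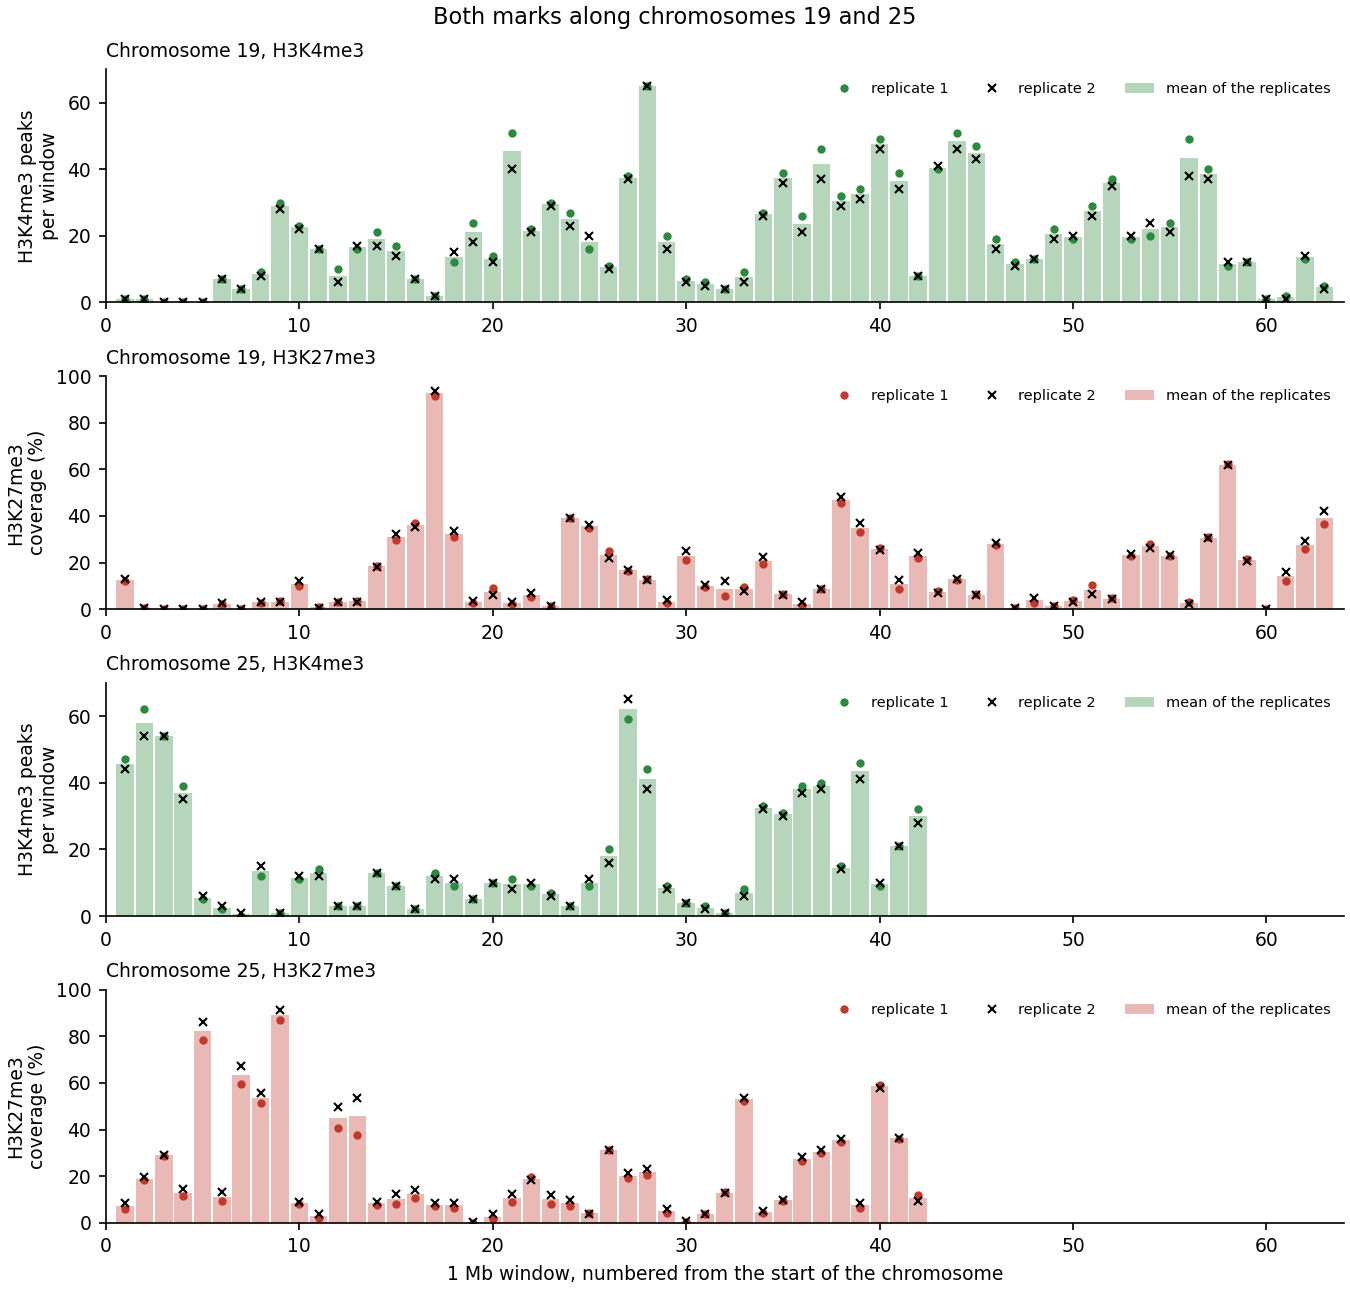
H3K4me3 peaks per window (green) and percent of the window under H3K27me3 peaks (red) in windows of 1 Mb, numbered from the start of the chromosome, with bars for the mean of the 2 replicates, dots for replicate 1 and crosses for replicate 2. Chromosome 19 has windows of 20 or more H3K4me3 peaks in several stretches between 8 and 57 Mb and chromosome 25 in blocks near its start, around window 27 and near its end, while the window with the highest H3K27me3 coverage holds 2 H3K4me3 peaks on chromosome 19 and 1 on chromosome 25.

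Windows with much of their length under H3K27me3 were frequent on both chromosomes, whether through wide peaks or many of them. At least 25% of the window was under H3K27me3 in both replicates in 15 of 63 windows of chromosome 19 (23.8%) and in 14 of 42 of chromosome 25 (33.3%), against 8.29% of the comparison windows. On chromosome 18 it was 22 of 66, or 33.3%, as on chromosome 25. On chromosome 19 the window from 16 to 17 Mb was under H3K27me3 for 91.5% in replicate 1 and 93.7% in replicate 2. It held 2 H3K4me3 peaks in each and was part of a stretch from 14 to 18 Mb with a mean coverage of 47.4% and 48.7%. The window from 57 to 58 Mb followed, with 62.4% and 61.7%. On chromosome 25 the window from 8 to 9 Mb was covered for 86.8% and 91.4% and held 1 H3K4me3 peak in each replicate. The window from 4 to 5 Mb was covered for 78.5% and 86.3%, and that from 6 to 7 Mb for 59.5% and 67.3% with 0 and 1 H3K4me3 peaks. Of these 5 windows, that from 16 to 17 Mb on chromosome 19 and that from 8 to 9 Mb on chromosome 25 were above the highest comparison window, at 86.0% in replicate 1 and 87.8% in replicate 2, and the others were not. The window from 37 to 38 Mb on chromosome 19 held both marks, with 45.4% and 48.1% under H3K27me3 beside 32 and 29 H3K4me3 peaks. Windows past both limits, 20 H3K4me3 peaks and 25% H3K27me3, made up 9.52% of each chromosome (6 of 63 and 4 of 42), against 2.15% of the comparison windows and 21.2% of those of chromosome 18.

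The 3 widest H3K27me3 domains of each chromosome were 194 to 297 kb long and overlapped 0 to 7 H3K4me3 regions. On chromosome 19 of ARS-UCD1.2 the widest shared H3K27me3 region lay at 16925401 to 17222200 and spanned 297 kb. Replicate 2 had it as 1 peak of 296 kb and replicate 1 as 5 peaks, the widest of 164 kb. The next, at 37814601 to 38099000, spanned 284 kb and overlapped 7 shared H3K4me3 regions, which filled 4.85% of it. The third, at 23608401 to 23880400, spanned 272 kb and overlapped 5. On chromosome 25 the widest region, at 25372601 to 25597000, spanned 224 kb and overlapped 2 H3K4me3 regions. The regions at 7991801 to 8215000 and at 39513401 to 39707600 spanned 223 kb and 194 kb and overlapped none. The region at 7991801 to 8215000 was split into 8 peaks in replicate 1 and 4 in replicate 2, so its extent comes from merging the replicates. The same holds for that at 39513401 to 39707600, with 5 and 3 peaks, the widest of 89.2 and 88.4 kb. The region at 25372601 to 25597000 was 2 and 3 peaks, the widest of 217 and 188 kb. On chromosome 19, that at 37814601 to 38099000 was 4 peaks in replicate 1, the widest of 142 kb, and 1 peak in replicate 2.

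As merged from the 2 replicates, the 3 widest H3K4me3 regions of chromosome 19 were wider than those of chromosome 25. On chromosome 19 the widest lay at 37528201 to 37551800, at 20132001 to 20153600 and at 20605201 to 20621800, and spanned 23.6, 21.6 and 16.6 kb. None of them overlapped a shared H3K27me3 region. The region at 20132001 to 20153600 was a single peak in each replicate, of 21.4 kb and 21.6 kb, and 99.9% of the peaks of either list did not exceed its score. That at 37528201 to 37551800 was 2 peaks in each replicate, the wider of 19.6 kb and 18 kb. The region at 20605201 to 20621800 was 1 peak of 16.6 kb in replicate 2. In replicate 1 it was 2 peaks, the wider of 8.4 kb, narrower than the 13.6 kb peak of chromosome 25 in that replicate. On chromosome 25, that at 2619001 to 2632600 spanned 13.6 kb and lay wholly under H3K27me3. Those at 3481201 to 3494400 and at 38879001 to 38891800 spanned 13.2 and 12.8 kb and overlapped no H3K27me3 region. The region at 3481201 to 3494400 was 3 peaks in replicate 1 and 2 in replicate 2, the widest of 9.4 and 8.6 kb.

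About 1 in 5 H3K4me3 regions of chromosomes 19 and 25 overlapped H3K27me3, which was not more than elsewhere although H3K27me3 covered more of both chromosomes. On chromosome 19, 226 of 1063 shared H3K4me3 regions overlapped a shared H3K27me3 region, which made 21.3%, and the 95% Wilson bounds of 18.9% and 23.8% cover counting error only. On chromosome 25 it was 143 of 655, or 21.8% (bounds 18.8% and 25.2%). In the lists of replicate 1 the shares were 20.3% and 19.7%, and in those of replicate 2 they were 20.9% and 19.8%. The comparison autosomes had a median of 25.8% and a range from 18.96% on chromosome 22 to 33.0% on chromosome 21, so both chromosomes lay in the lower part of this range. Chromosome 18, with 18.7% of its length under shared H3K27me3 regions, was also below the median, at 23.7%. When peaks below the median score were dropped, the shares fell to 10.5% and 8.98%, beside a comparison median of 14.2%. H3K4me3 regions wholly inside H3K27me3 made up 16.9% on chromosome 19 and 13.9% on chromosome 25, the latter being the lowest of the 28 autosomes. On chromosome 18 they made up 15.1%. Whether a region carried both marks in 1 cell or on 1 chromosome copy is not resolved by such lists.

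Seen from H3K27me3, the pair differed from each other. On chromosome 19, 159 of 501 shared H3K27me3 regions overlapped H3K4me3, or 31.7% (27.8% to 35.9%), near the comparison median of 33.2%. On chromosome 25 it was 96 of 483, or 19.9% (16.6% to 23.7%). The values were 23.5% and 14.6% in replicate 1 and 25.4% and 15.5% in replicate 2, so the difference between the chromosomes was larger than that between replicates. The share on chromosome 25 was below that of 24 of the 26 comparison autosomes, and most H3K27me3 regions held no H3K4me3 on all of them. On chromosome 25 those without it had a median width of 11600 bp and those with it of 13200 bp.

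Counted in bp, 16.2% of the H3K4me3 of chromosome 19 lay under H3K27me3, which itself covered 16.3% of the chromosome, a ratio of 0.995. On chromosome 25, 14.3% of the H3K4me3 lay under H3K27me3, which covered 23.8%, a ratio of 0.602. The ratio was 0.648 in replicate 1 and 0.563 in replicate 2. It was 0.925 on chromosome 18, which was the lowest of the comparison autosomes, and their median was 2.96. Chromosome 25 was the lowest of the 28 autosomes both in this ratio and in the share of 14.3%. The ratio has the coverage as its denominator and fell with it across the autosomes (Spearman's rho of -0.96 over 28 autosomes, as a description), so the place of chromosome 25 in the ratio and its high coverage cannot be told apart.

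**Figure D4:**
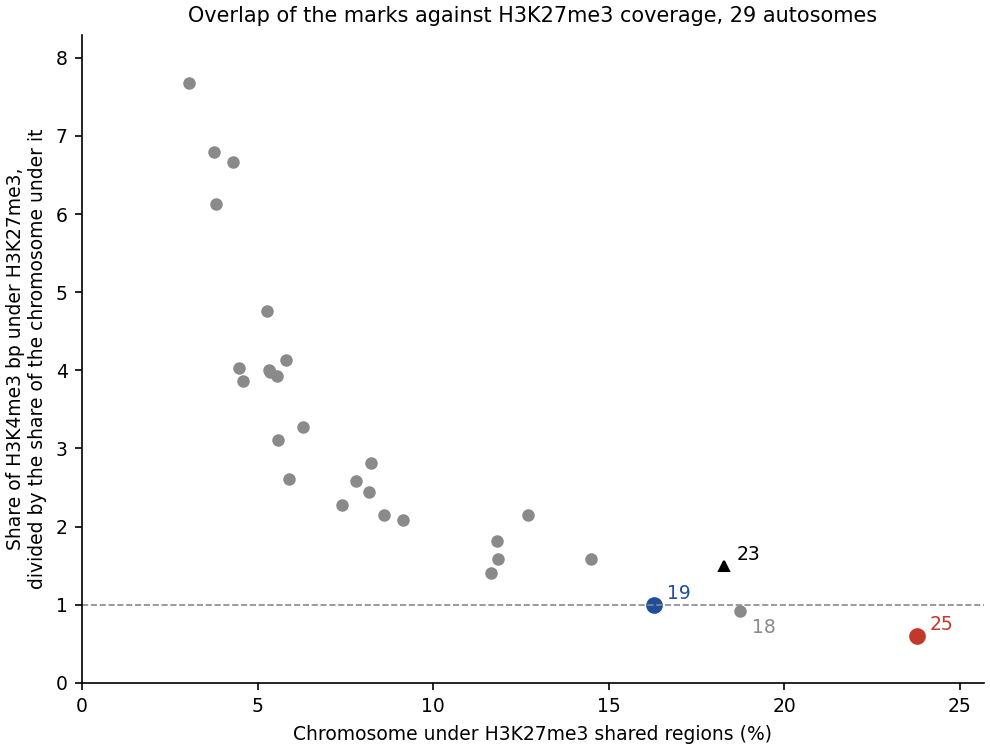
Percent of the chromosome under shared H3K27me3 regions (horizontal axis) and the share of H3K4me3 bp under H3K27me3 divided by that coverage (vertical axis), 1 point per autosome, with a dashed line at a ratio of 1 and chromosome 23 as a triangle. Chromosome 19 (blue) is at 0.995 and chromosome 25 (red) at 0.602, at the lower end of a fall over all autosomes.

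H3K4me3 and H3K27me3 showed little common rise and fall from window to window on both chromosomes, unlike the comparison autosomes. Over the 63 windows of chromosome 19, shared H3K4me3 regions and H3K27me3 coverage had a Spearman's rho of 0.13, and over the 42 windows of chromosome 25 of -0.05. In replicates 1 and 2 alone, rho was 0.15 and 0.16 on chromosome 19 and -0.06 and -0.04 on chromosome 25. On each of the 26 comparison autosomes rho was higher, from 0.32 to 0.72 with a median of 0.55. Chromosome 18, as densely marked, had 0.50. These values are descriptions, since neighbouring windows of a chromosome share their libraries and are not independent. They stayed below all comparison autosomes when the 3 windows highest in H3K27me3 were left out of every chromosome, at 0.18 and 0.14. With only windows of at least 5 H3K4me3 regions they were -0.05 and 0.11, and 1 comparison autosome was then lower than chromosome 25. The comparison values fell as well in this setting, to a median of 0.36 and a lowest value of 0.109, and chromosome 18 fell to 0.30. The 2 libraries of each mark ranked the windows alike, with rho of at least 0.98 for each mark on both chromosomes.

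Windows of like H3K4me3 content showed where the H3K27me3 lay. In windows with 0 to 4 shared H3K4me3 regions, the median H3K27me3 coverage was 13.15% over 10 windows of chromosome 25, against 0.72% over 11 windows of chromosome 19 and 0.31% over 1154 comparison windows. The means of this class were 31.3%, 15.8% and 3.49%, so a few windows of chromosome 19, among them that from 16 to 17 Mb, were far above its median. With 5 to 9 regions the medians were 11.2% on chromosome 25, 9.18% on chromosome 19 and 1.94% in the comparison. With 10 to 19 regions they were 32.0%, 20.6% and 7.88%, over 7, 23 and 384 windows. The means of that class, 27.3%, 18.9% and 13.6%, lay closer together than the medians. In windows of 20 or more regions the order was different, with 16.7% on chromosome 25, 9.56% on chromosome 19 and 13.1% in the comparison. The means there were 17.9%, 14.3% and 17.5%, so chromosome 25 was near the comparison. On chromosome 18 the medians from the lowest to the highest class were 1.19%, 12.3%, 10.2% and 30.0%. In these densest windows 19.1% of the H3K4me3 regions of chromosome 19 and 19.8% of those of chromosome 25 overlapped H3K27me3, against 22.9% in the comparison and 24.6% on chromosome 18. In windows with 0 to 4 regions the order was the other way, with 8 of 15 regions on chromosome 19 (53.3%) and 11 of 20 on chromosome 25 (55.0%), against 28.6% in the comparison and 29.6% on chromosome 18. With 5 to 9 regions the shares were 27.7% on chromosome 19, 19.4% on chromosome 25, 25.1% in the comparison and 31.5% on chromosome 18. With 10 to 19 regions they were 22.3%, 24.4%, 25.4% and 18.8% in the same order, so chromosome 18 was then the lowest. The raised coverage of chromosome 25 was thus found in windows poor in H3K4me3 as well as in windows of medium content.

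**Figure D5:**
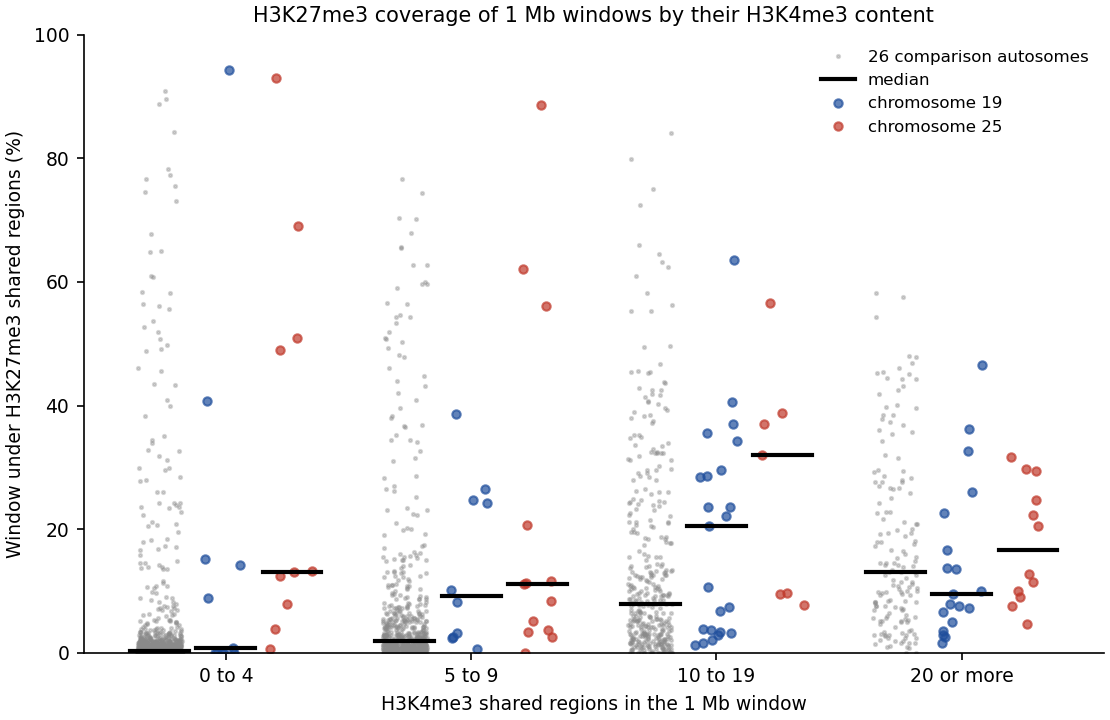
Percent of each 1 Mb window under shared H3K27me3 regions (vertical axis) by its number of shared H3K4me3 regions (horizontal axis, 4 classes), with points for windows of the comparison autosomes (grey), chromosome 19 (blue) and chromosome 25 (red) and black bars for medians. In windows with 0 to 4 regions the median is 13.15% on chromosome 25 and 0.31% in the comparison, while in windows of 20 or more the 3 medians lie between 9.56% and 16.7%.

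SBDS, whose product is needed for the maturation of the large ribosomal subunit, is drawn on chromosome 25 in the browser view of the study. The text of the paper does not name it. The H3K4me3 peak at its approximate place spanned 28375801 to 28381000 in the first library, with a score that 88.3% of the list did not exceed. In the second library it spanned 28375201 to 28381000, and 90.4% did not exceed its score. No H3K27me3 peak lay over the drawn gene in either library. In the RefSeq order of protein-coding genes its neighbours are TMEM248 and TYW1, the latter an enzyme of tRNA modification. The gene lies in a window of modest marking, with 9 and 8 H3K4me3 peaks and 4.36% and 5.82% under H3K27me3, next to the block from 26 to 28 Mb.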

How the data were processed

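Peak lists of 2 H3K4me3 and 2 H3K27me3 CUT&RUN libraries were used. The authors used Trim Galore for trimming and BWA 0.7.17-r1188 for alignment to ARS-UCD1.2, removed duplicates and low-quality alignments, and called peaks per library with epic2, allowing more gaps for H3K27me3. No control library is stated. The deposited lists hold positions in steps of 200 bp and a score of unnamed meaning. Read depth is not given by the lists. Chromosome length ran to the last peak in any list. Peaks overlapping the other replicate by at least 1 bp were merged into shared regions. Windows of 1 Mb took peaks by midpoint, and a last window under 0.5 Mb was dropped. The chromosomes and measures were chosen with earlier results of these data known. Named were SBDS, the 3 windows highest in each mark, windows without peaks and the 3 widest regions of each mark. The place of SBDS was read by eye from the study's browser view. RefSeq names (ARS-UCD2.0) were counted per chromosome, and their order gave the neighbours of SBDS. No RefSeq position was compared with a peak. No test was made, since each mark has 2 libraries of one kind of cell, so values per replicate and places among the autosomes are given. Alternatives were other choices of peaks, lengths, windows and comparison autosomes. Scripts ran in Python 3.11.15 with scipy 1.17.1, matplotlib 3.10.9, pandas 2.3.3 and numpy 2.4.6. Simulated peaks served to check the overlap code, and the counts of overlapping regions on both chromosomes were the same from bedtools 2.31.1.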

Additional observations from a re-analysis of the deposited data

How the results depend on the processing

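Values are given for chromosomes 19 and 25 in this order unless one is named. With peaks of either replicate, H3K4me3 regions per Mb were 21.1 and 18.9, H3K27me3 coverage was 17.97% on chromosome 19, H3K4me3 regions overlapping H3K27me3 made up 22.0% and 22.7%, median region widths were 2800 and 2800 bp for H3K4me3 and 8200 and 9600 bp for H3K27me3, the ratio to the median comparison autosome was 2.16 for H3K4me3 density on chromosome 25 and 2.49 and 3.52 for H3K27me3 coverage, the bp ratio was 0.951 on chromosome 19 and rho was -0.0933 on chromosome 25. With peaks at or above the median score the same measures were 9.91 and 9.99 per Mb, 12.9% and 19.5%, 10.5% and 8.98%, 4200 and 4000 bp, 17500 and 19600 bp, 2.46 and 2.48, 2.83 and 4.27, and 0.6996 and 0.413, with rho of 0.0565 on chromosome 25. With replicate overlap of 50% of the peak, coverage was 15.5% and the bp ratio 1.03 on chromosome 19, the share with H3K27me3 was 20.9% on chromosome 25, H3K27me3 widths were 9600 and 10800 bp and rho was 0.15 and -0.0190. With 50% of the H3K4me3 region under H3K27me3 required, the shares were 19.3% and 17.6%. With chromosome 23 in the comparison, the H3K4me3 ratio was 2.39 on chromosome 19 and the H3K27me3 ratios 2.59 and 3.78. Against autosomes numbered 18 and above these were 2.39, 1.78 and 2.60, and against the mean autosome the H3K4me3 ratios were 2.37 and 2.19 and the H3K27me3 ratios 2.12 and 3.10. Windows shifted by 0.5 Mb gave 41.3% and 38.1% dense windows. The rank correlation of the marks over windows was 0.18 and 0.14 without the 3 windows highest in H3K27me3 and -0.0513 and 0.11 in windows of at least 5 H3K4me3 regions.

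With 1 replicate only, the ranges were 18.98 to 20.6 and 17.5 to 18.4 H3K4me3 peaks per Mb, 15.3% to 15.9% and 21.1% to 23.4% under H3K27me3, 20.3% to 20.9% and 19.7% to 19.8% of H3K4me3 peaks with H3K27me3, 2400 to 2600 and 2400 to 2800 bp for H3K4me3 width, and 7000 to 7400 and 7000 to 8600 bp for H3K27me3 width. The H3K4me3 ratio ranged from 2.45 to 2.48 and from 2.20 to 2.26, the H3K27me3 ratio from 2.56 to 2.66 and from 3.66 to 3.76, dense windows from 44.4% to 46.0% and from 31.0% to 33.3%, the bp ratio from 0.981 to 1.01 and from 0.563 to 0.648, and rho from 0.15 to 0.16 and from -0.06 to -0.04.

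The alternatives for the bp ratio and rho were chosen after seeing the data. Of 118 alternative values of 20 results, 36 moved by less than the spread between replicates and 82 moved by more. The sign of rho changed on chromosome 19 in windows of at least 5 H3K4me3 regions, and on chromosome 25 there, without the 3 windows highest in H3K27me3 and with peaks at or above the median score, so no sign is read from it. In every choice of peaks, rho on both chromosomes was below all 26 comparison autosomes, the exception among the window choices being that of at least 5 regions. The cause was not tested where values moved. No test compared groups, so no paired test was made, and the values within each replicate are descriptions. Depth is unknown and no control library is stated, and regions too weak to be called are not seen.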
